A study of Mus musculus with 7 samples.

Results

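The cartilage genes studied here are the Sox trio, its partner Wwp2, the chondrocyte collagens and the other matrix, sulfation and growth plate genes that accompany them, 48 symbols in all. They were found as rows of the gene counts table by symbol, which gave 42 of the 18468 genes in the table. Of the other 6 symbols, Cnmd is the current name of Lect1, and Snorc is listed under an older name with 2, 1 and 0 reads with vehicle and 0 in all purmorphamine libraries. Chad, Barx1, Barx2 and Fgfbp2 were not analysed here. The counts are from C3H10T1/2 cells, an established mesenchymal line of the mouse, after 12 h without serum and then 48 h with either 2 μM purmorphamine, which activates the Hedgehog transducer Smo (4 libraries, numbered 5 to 8), or with 0.02% DMSO as vehicle (3 libraries, numbered 2 to 4). Serum was also left out during the treatment, with purmorphamine and with vehicle alike. The cells are not labelled as chondrocytes, so the set is a gene program and not a cell type. All the libraries are of this 1 line, and the labels give no genetic change in either group.

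Cartilage matrix is made by chondrocytes under the control of Sox9, which binds enhancers of matrix genes as a dimer and works together with Sox5 and Sox6, a pair of related Sox proteins that lack a transactivation domain of their own. The main products are type II collagen fibrils that carry type IX and type XI collagen, and aggrecan, a proteoglycan whose many chondroitin sulfate chains hold water and which is tied to hyaluronan by link protein. In the growth plate, Indian hedgehog and parathyroid hormone-related protein set the pace at which chondrocytes proliferate and enlarge, and enlarged chondrocytes make type X collagen.

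Transcripts of the cartilage program were lower after purmorphamine than after vehicle almost throughout. Of the 42 genes, 32 passed the filter on low counts, and 28 of these were lower at the threshold used here, a Benjamini-Hochberg adjusted p below 0.2 in the edgeR quasi-likelihood fit over 12388 genes, in which 31.1% of all genes tested were lower and 62.5% were called in either direction. Only Matn2 and Matn4 were higher, against 31.4% of all genes tested, and Hapln4 and Pth1r did not pass the test in either direction. A fall of at least 2-fold was found for 20 of the 32 genes (3.45% of all genes tested) and one of at least 4-fold for 12 (1.03%). The median log2 fold change was -1.55 over these 32 genes and 0.0038 over all genes tested. The groups did not overlap for 27 genes that were lower and 2 that were higher, against 20.4% and 29.1% of all genes tested. The genes were chosen with earlier results of these data known, so these shares are a description and not independent support. Acan and Scrg1 passed the filter only through their vehicle libraries. Both are counted among the 28, the 20 and the 12, among the 27 without overlap, and in the median. In bulk RNA a smaller share of cells with a gene on and less RNA per cell cannot be told apart.

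**Figure D1:**
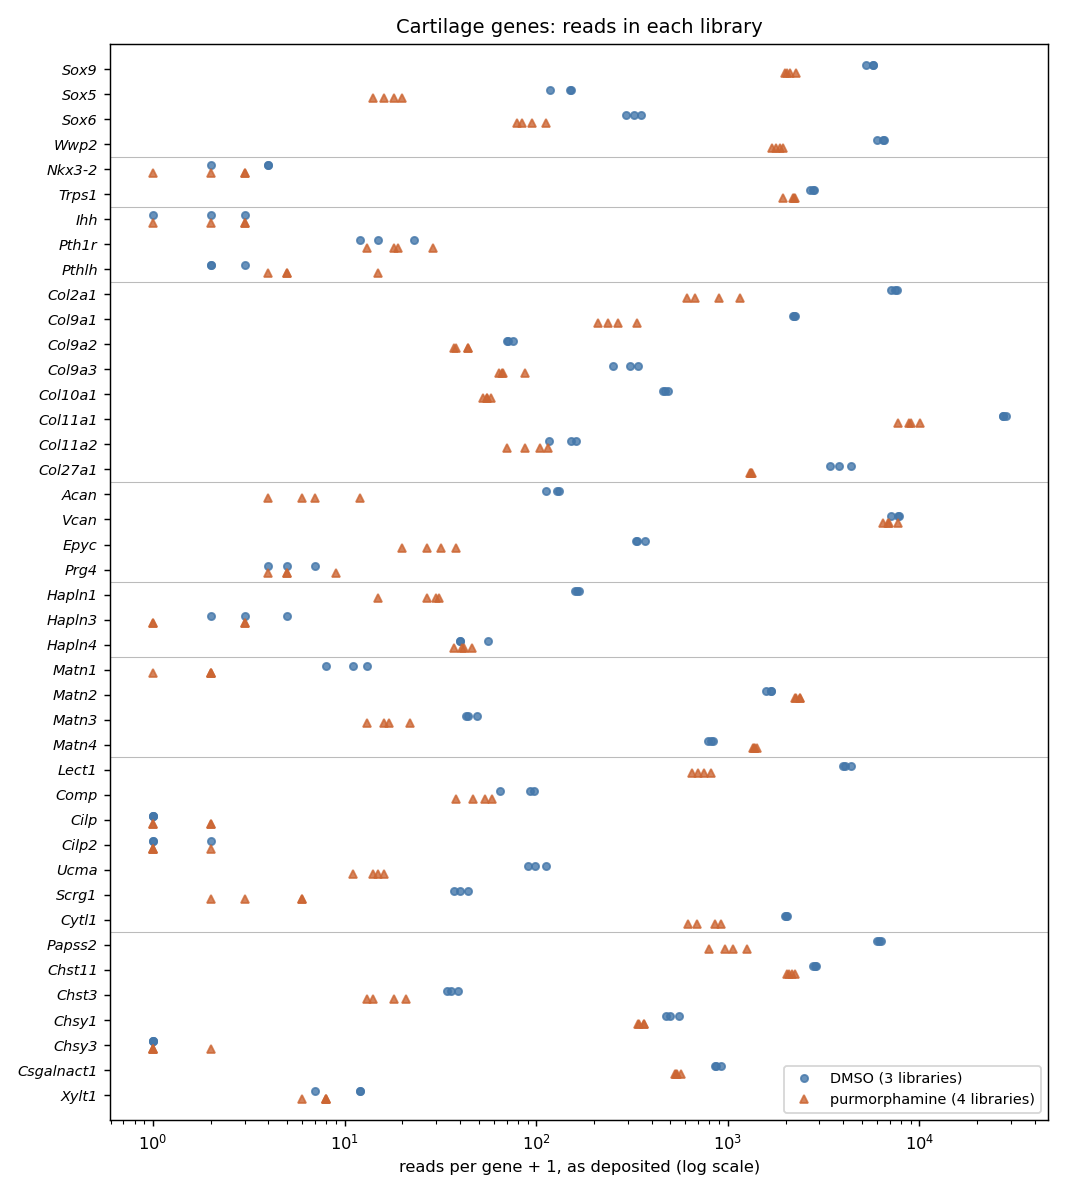
Reads of the 42 cartilage genes in each library, as deposited, with 1 added so that a count of 0 can be drawn on the log axis. Circles are the 3 vehicle libraries and triangles the 4 purmorphamine libraries, and grey lines part the genes by role. Among the 32 genes tested, the purmorphamine libraries lay wholly to the left of the vehicle libraries for 27 and wholly to the right for Matn2 and Matn4 (20.4% and 29.1% of all genes tested).

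The libraries held from 14337225 to 14342154 reads, since the authors had resampled them to equal depth, and a gene listed at 0 could still have 3 reads, or 0.209 CPM, by counting error alone. Targets of the Hedgehog pathway rose, with Gli1 going from 10.0 ± 2.65 (SD, n = 3) to 2770.0 ± 295 reads (SD, n = 4) and Ptch1, the Hedgehog receptor and a target of the pathway, from 521 ± 15.1 to 10922 ± 475 reads. The 9 mesenchymal markers checked, Vim, Col1a1 and Col3a1 among them, together had from 341882 to 384985 reads in every library, but they did not move alike. Of the 9, 3 were higher (Pdgfra, Thy1 and Col3a1), 3 were lower (Vim, S100a4 and Col1a2) and 3 were not called, and Vim fell by 0.96 on the log2 scale. Ptprc of blood cells had 1 read in all, and the blood, neural and skeletal muscle lists together had at most 21, 14 and 6 reads in any library. Among the 4 endothelial markers the summed reads ran from 779 to 820 with vehicle and from 1898 to 2154 with purmorphamine, nearly all of Tek. Cdh5 of the same list rose from 0 in all vehicle libraries to 21, 26, 22 and 24 reads, and Pecam1 and Kdr had at most 5 reads in any library. The 4 epithelial markers ran from 14 to 22 reads with vehicle and from 110 to 135 with purmorphamine, which was Cdh1. The adipocyte list ran from 47 to 65 reads with vehicle and from 19 to 28 with purmorphamine. Of 6 osteoblast markers 3 were tested, of which Alpl (0, 1 and 0 reads against 195, 228, 205 and 181) and Runx2 were higher and Spp1 lower. Tendon markers summed to between 2752 and 4250 reads over all libraries, most of them of Tnmd, which was not called. Mkx of the same list rose from 298, 272 and 247 to 416, 391, 395 and 431 reads. Scx had at most 10 reads in any library. The part of these markers in the results was not tested. Since the labels do not say whether the libraries came from separate cultures, p-values measure only the spread between these samples.

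Sox9 (ENSMUSG00000000567, chromosome 11 from 112643338 to 112649274 in mm9) had 5688, 5735 and 5240 reads with vehicle against 2101, 1986, 2041 and 2254 with purmorphamine. Its groups did not overlap. The log2 fold change was -1.45 (standard error, SE, 0.0514, edgeR adjusted p = 5.72e-13), or 2.74-fold lower. Sox5 (chromosome 6 from 143776745 to 144730697) had 149, 150 and 117 reads with vehicle against only 17, 13, 15 and 19 with purmorphamine (log2 fold change -3.15, SE 0.171, edgeR adjusted p = 1.23e-10). Sox6 (chromosome 7 from 122614658 to 123182458) lay between its partners, with 294, 322 and 352 reads against 83, 78, 94 and 111 and a log2 fold change of -1.86 (SE 0.113). The trio was unequal in abundance as well. Per kilobase of exons, Sox9 was at 1343 reads in vehicle-treated cells, Sox6 at 34.5 and Sox5 at 18.7.

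Wwp2 (chromosome 8 from 109960098 to 110082694), a ubiquitin ligase that binds Sox9, had 6522, 6430 and 6015 reads with vehicle against 1870, 1793, 1699 and 1933 with purmorphamine. Its groups did not overlap, and the log2 fold change was -1.84 (SE 0.0504, edgeR adjusted p = 3.74e-14). Wwp2 contains Mir140 and Col27a1 contains Mir455, both on the strand of the host and both genes of microRNAs known from cartilage. The host transcripts were counted here and the mature microRNAs were not. Their mature sequences from RefSeq (GRCm38.p6) are shown because both genes that carry them fell, with the seed, bases 2 to 8, in capitals.
mmu-miR-140-3p: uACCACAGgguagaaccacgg
mmu-miR-455-5p: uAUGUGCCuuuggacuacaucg
mmu-miR-455-3p: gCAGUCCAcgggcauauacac
These lie at chr8:107551288-107551308, chr4:63256867-63256888 and chr4:63256904-63256924, all on the plus strand, and no seed is shared among them. For Mir140 only the 3p sequence was read here, so its 5p arm was not compared.

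Trps1, a GATA-type repressor of the growth plate, fell far less than the trio, from 2758 ± 77.5 (SD, n = 3) to 2139.8 ± 142 reads (SD, n = 4), with a log2 fold change of -0.41 (SE 0.0542, edgeR adjusted p = 8.14e-06). Nkx3-2, a repressor that maintains chondrocytes, had at most 3 reads in any library and was not tested.

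All 8 chondrocyte collagens were lower, where 31.1% of all genes tested were. Col2a1 (chromosome 15 from 97805833 to 97835355), the type II chain, had 7123, 7429 and 7655 reads with vehicle against 899, 672, 609 and 1153 with purmorphamine. Its groups did not overlap, although the purmorphamine libraries ranged widely, with replicate 8 the highest and replicate 7 the lowest. The log2 fold change was -3.20 (SE 0.134, edgeR adjusted p = 4.60e-12), or 9.18-fold lower. Col10a1 (chromosome 10 from 34109587 to 34117091), the type X chain of enlarged chondrocytes, had a fold change close to it with little spread, from 468, 460 and 488 reads to 54, 52, 54 and 57 (log2 fold change -3.17, SE 0.0903).

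The 3 chains of type IX collagen, which assemble into 1 molecule, did not fall alike. Col9a1 had 2228, 2198 and 2221 reads with vehicle against 265, 210, 237 and 336 with purmorphamine (log2 fold change -3.13, SE 0.0911). Col9a3 went from 309, 339 and 249 reads to 66, 65, 63 and 86 (log2 fold change -2.14, SE 0.128). Col9a2 was the least abundant of the 3 and the least changed, from 69, 75 and 70 reads to 37, 43, 36 and 43 (log2 fold change -0.89, SE 0.147). Their 95% intervals, from -3.32 to -2.93, from -2.41 to -1.87 and from -1.20 to -0.58, did not overlap.

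The chains of type XI collagen also parted. Col11a1, per length the most abundant of the 42 genes with 3601 reads per kilobase of exons in vehicle-treated cells, had 27283, 28230 and 27321 reads with vehicle against 9086, 7687, 8801 and 10091 with purmorphamine. This was a 3.20-fold fall (log2 fold change -1.68, SE 0.0675, edgeR adjusted p = 2.81e-12), and Col11a1 remained the most abundant of the set at 1163 reads per kilobase. Col11a2 had 151, 160 and 116 reads with vehicle against 114, 103, 69 and 86 with purmorphamine, so that the groups came close without overlapping (log2 fold change -0.66, SE 0.153, edgeR adjusted p = 0.00189). The exact permutation test on its scaled counts gave p = 0.0571 (two-sided, smallest possible 0.0286). Col27a1, a fibrillar collagen of cartilage, fell from 3814, 4379 and 3392 to 1316, 1301, 1324 and 1335 reads (log2 fold change -1.60, SE 0.065).

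Among the proteoglycan core proteins, Acan (chromosome 7 from 86198169 to 86260185) had the largest fall of the 32 genes and the fifth largest of all genes tested. Acan passed the filter only through its vehicle libraries, so this rank is a description and rests on few purmorphamine reads. It had 112, 128 and 131 reads with vehicle against 5, 3, 6 and 11 with purmorphamine (log2 fold change -4.33, SE 0.227, edgeR adjusted p = 7.99e-11). Epyc (chromosome 10 from 97106502 to 97145288), which encodes epiphycan, a small leucine-rich proteoglycan of the growth plate, went from 331, 368 and 334 reads to 19, 37, 26 and 31, or 12.5-fold lower (log2 fold change -3.65, SE 0.136, edgeR adjusted p = 1.05e-12). Vcan, which encodes versican, the large chondroitin sulfate proteoglycan of mesenchyme before cartilage forms, fell least of the 28 genes. It had 7126, 7698 and 7831 reads with vehicle against 6864, 6902, 7748 and 6426 with purmorphamine, groups that overlapped, and its log2 fold change was -0.16 (SE 0.0598, edgeR adjusted p = 0.0376). Prg4, which encodes lubricin of the joint surface, had at most 8 reads in any library.

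Link protein ties aggrecan, the product of Acan, to hyaluronan. Hapln1, the link protein of cartilage, had 158, 166 and 162 reads with vehicle against 26, 14, 30 and 29 with purmorphamine (log2 fold change -2.75, SE 0.165, edgeR adjusted p = 4.72e-10). Hapln1 and Vcan are neighbours on chromosome 13, 43659 bases apart in GENCODE M21 (GRCm38), yet their log2 fold changes were -2.75 and -0.16. Hapln4, a link protein of brain, had 55, 39 and 39 reads with vehicle against 45, 41, 40 and 36 with purmorphamine. These groups overlapped, and the log2 fold change was -0.18 with a 95% interval from -0.56 to 0.21 (edgeR adjusted p = 0.448). Hapln3, whose interval in the mm9 coordinates of the counts overlaps the end of Acan, and which lies 2 bases past it on the other strand in GENCODE M21, had at most 4 reads in any library.

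The matrilins, adaptor proteins of the matrix, went in opposite directions. Matn4 (chromosome 2 from 164214929 to 164230860) had 832, 785 and 815 reads with vehicle against 1381, 1410, 1348 and 1371 with purmorphamine. All purmorphamine libraries were above all vehicle libraries, and the log2 fold change was 0.72 (SE 0.0486, edgeR adjusted p = 2.18e-09). Matn2, which is made in many connective tissues, rose from 1670, 1584 and 1675 to 2234, 2386, 2383 and 2276 reads (log2 fold change 0.45, SE 0.0478, edgeR adjusted p = 6.58e-07). Matn1 and Matn3 are the forms typical of cartilage. Matn3 fell from 43, 42 and 48 to 12, 15, 21 and 16 reads (log2 fold change -1.51, SE 0.211). Matn1 had too few reads for the fit, 12, 10 and 7 with vehicle and 0, 1, 1 and 1 with purmorphamine. The ratio of its mean counts was 0.0776, with an exact 95% interval from 0.0151 to 0.25 for counting error only, and every purmorphamine library was below the vehicle libraries (p = 0.0286 by exact permutation, two-sided, the smallest that 35 splits allow).

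**Figure D2:**
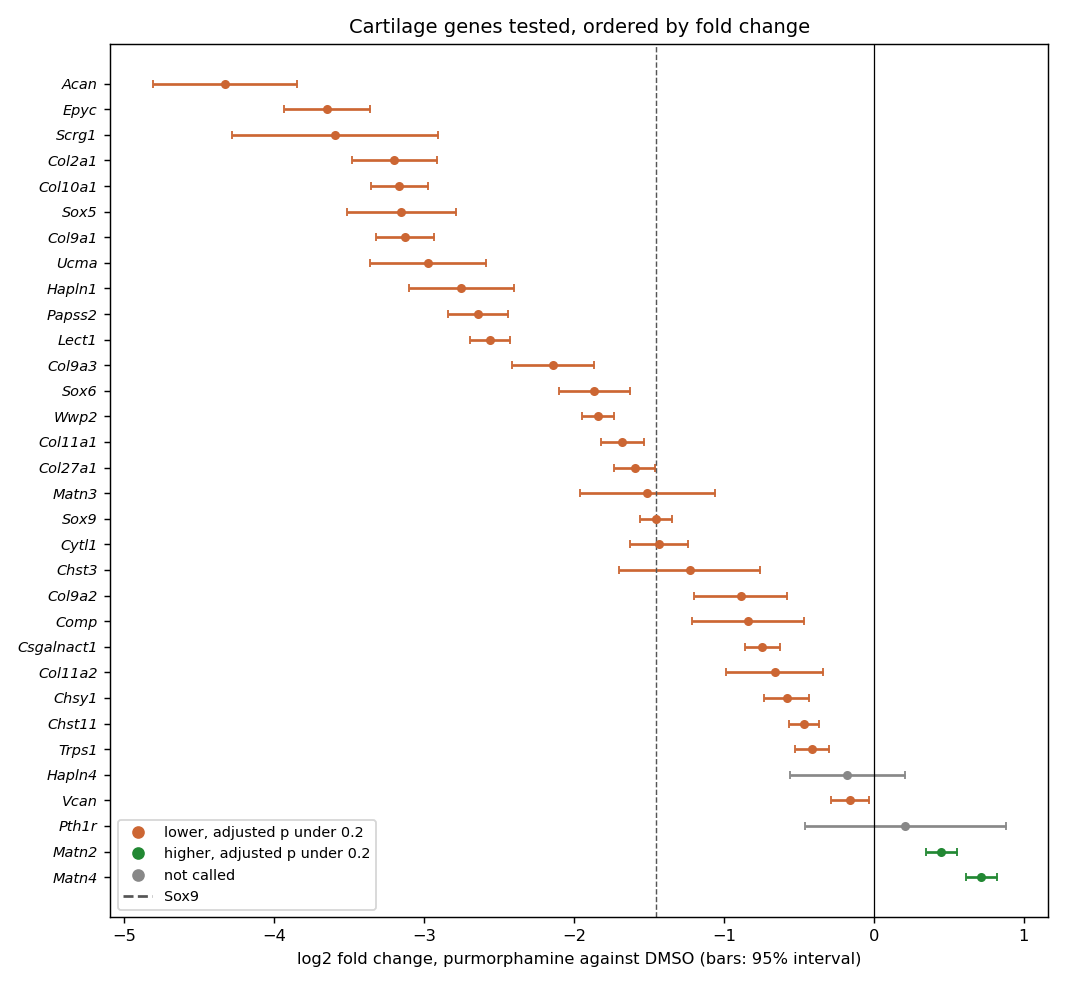
Log2 fold change of the 32 cartilage genes tested, purmorphamine against vehicle, from edgeR with 95% intervals, ordered by size. The dashed line marks Sox9 at -1.45. Acan stands at the far left at -4.33, and Matn2 and Matn4 are the genes to the right of 0 that passed the test.

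Other secreted proteins of cartilage were lower without exception among the 5 tested, where 31.1% of all genes tested were. Of the 5, Scrg1 passed the filter only through its vehicle libraries. Lect1 (chromosome 14 from 80037297 to 80062177), which encodes chondromodulin, an inhibitor of vessel growth, had 4007, 4094 and 4374 reads with vehicle against 748, 647, 701 and 816 with purmorphamine (log2 fold change -2.56, SE 0.0639, edgeR adjusted p = 1.18e-14). Per length it was second to Col11a1 in vehicle-treated cells. Ucma, a small protein of growth plate cartilage, fell from 89, 112 and 98 to 10, 14, 13 and 15 reads, and Scrg1 from 43, 36 and 39 to 5, 1, 2 and 5. Cytl1, a secreted cytokine-like protein, had 1982, 2018 and 2033 reads with vehicle against 854, 617, 685 and 916 with purmorphamine. Its log2 fold change of -1.44 (SE 0.0915) was close to that of Sox9. Comp, a pentameric matrix protein, was among the less affected genes, at 92, 96 and 64 reads against 53, 58, 46 and 37 (log2 fold change -0.84, SE 0.177, edgeR adjusted p = 0.000888). Cilp and Cilp2 had at most 1 read in any library.

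Sulfation of cartilage proteoglycans begins with the sulfate donor made by Papss2 (chromosome 19 from 32694295 to 32741877). Papss2 had 6298, 6011 and 6116 reads with vehicle against 1058, 796, 966 and 1259 with purmorphamine, with a log2 fold change of -2.64 (SE 0.0945, edgeR adjusted p = 6.76e-13). The enzymes that build and sulfate the chondroitin chain had smaller fold changes, and none of the 95% intervals of the 4 tested overlapped that of Papss2. Csgalnact1, which starts the chondroitin chain, was at 878 ± 32.7 (SD, n = 3) and 541 ± 17.3 reads (SD, n = 4), a log2 fold change of -0.74. Chsy1, which extends the chain, went from 508 ± 39.0 to 351 ± 14.0 reads (-0.58), and Chst11, which sulfates it, from 2845 ± 49.2 to 2127.8 ± 87.9 reads (-0.47). Chst3, another sulfotransferase, had 35, 33 and 38 reads with vehicle against 17, 13, 12 and 20 with purmorphamine (-1.23, SE 0.223). In all 4 the groups did not overlap, where 20.4% of all genes tested were lower without overlap. Xylt1 had from 5 to 11 reads and Chsy3 at most 1, and these were not tested.

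Further genes of glycosaminoglycan synthesis and sulfation, 22 by list, were read from the same fit. All 21 that are in the table were tested, and 13 were lower and 5 higher, where 31.1% and 31.4% of all genes tested were, with a median log2 fold change of -0.23. The largest fall was that of Slc26a2, the sulfate transporter of chondrocytes, from 1751, 1738 and 1679 to 658, 583, 685 and 704 reads (log2 fold change -1.44, SE 0.0592, edgeR adjusted p = 3.89e-12). Papss1, the widely expressed counterpart of Papss2, fell by 0.61 on the log2 scale. Chst15 fell by 0.66. Ust, a uronyl sulfotransferase, rose by a log2 fold change of 0.48, and Chst12 and Xylt2 rose by 0.32 and 0.30.

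**Figure D3:**
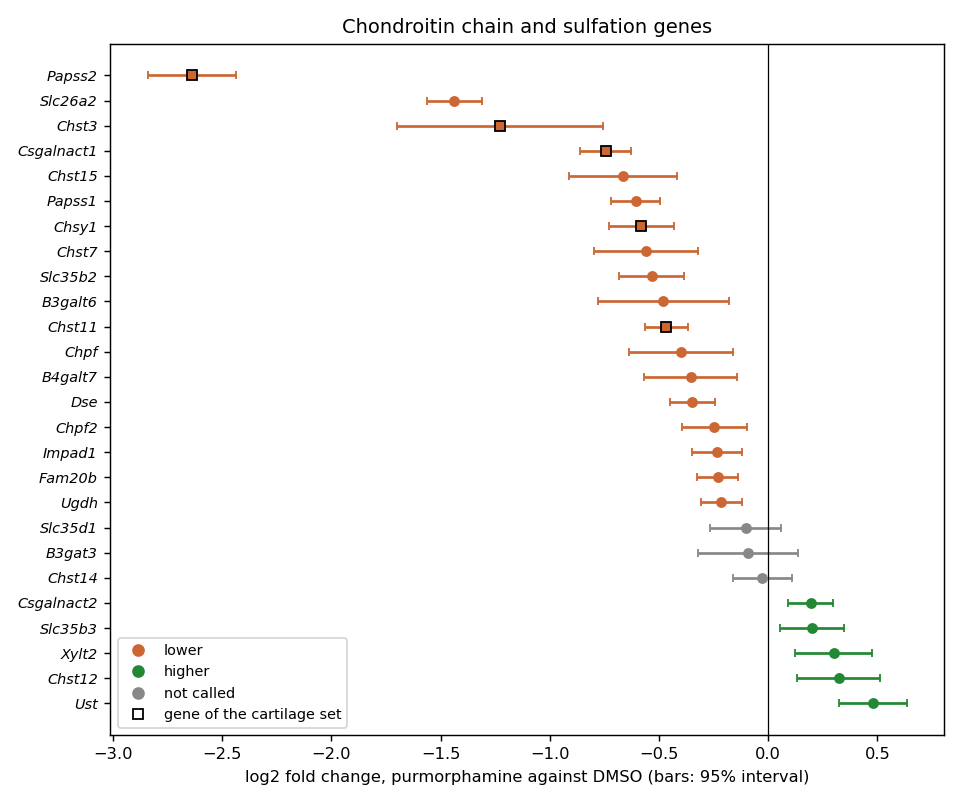
Log2 fold change, purmorphamine against vehicle, of the 5 sulfation and chondroitin genes of the cartilage set (squares) and of the 21 further genes of the pathway (circles), with 95% intervals derived from the edgeR test. Papss2 at -2.64 and Slc26a2 at -1.44 lie farthest to the left, and Ust at 0.48 farthest to the right.

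The growth plate signals were barely expressed. Ihh, which encodes Indian hedgehog, had at most 2 reads in any library. Pth1r, the receptor for parathyroid hormone-related protein, had 11, 22 and 14 reads with vehicle against 28, 17, 12 and 18 with purmorphamine, overlapping groups with a 95% interval of the log2 fold change from -0.46 to 0.88 (edgeR adjusted p = 0.619). Pthlh, the ligand, had 2, 1 and 1 reads against 4, 14, 3 and 4. The ratio of its mean counts was 4.69, with an exact 95% interval from 1.62 to 18.5 for counting error only (exact permutation test, two-sided, p = 0.0571), and was 2.75 without purmorphamine replicate 6.

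Whether the genes fell more or less than Sox9 was tested with limma on the log2 ratio of each gene's reads to the Sox9 reads of the same library, over all genes that passed the filter. The scale of a library cancels in this ratio, whereas the error of Sox9 is shared by all genes. By this test 16 of the other 31 genes fell more than Sox9 (1.54% of all genes tested) and 13 fell less or rose (97.2% of all genes tested). Acan and Scrg1, which passed the filter only through their vehicle libraries, are among the 16. Requiring 10 counts in every library leaves both out, and 14 genes then fell more. Matn3 and Cytl1 were not called, with differences of -0.060 (SE 0.180) and 0.00012 (SE 0.114). For each 1000 Sox9 reads there were 1252, 1295 and 1461 reads of Col2a1 with vehicle and 428, 338, 298 and 512 with purmorphamine. Col10a1 had 82.3, 80.2 and 93.1 such reads with vehicle and 25.7, 26.2, 26.5 and 25.3 with purmorphamine. Sox5 fell further than Sox9, by a log2 difference of -1.67 (SE 0.106, limma adjusted p = 4.32e-07), and Sox6 and Wwp2 differed from it by -0.42 and -0.39. The nearest to Sox9 among the genes called were Col27a1 (-0.14, limma adjusted p = 0.144) and Chst3 (0.22, adjusted p = 0.186), and both calls were lost when single libraries were left out.

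The genes that resisted the fall were of several roles. Matn2 and Matn4 rose. Hapln4 and Pth1r were not called. Vcan, Trps1, Chst11 and Chsy1 were lower by less than 1.5-fold, and Col11a2, Csgalnact1, Comp and Col9a2 by between 1.5-fold and 2-fold. Vcan, at 563 reads per kilobase of exons in vehicle-treated cells, was about as abundant per length as Col9a1, at 540, which fell to 63.8. With purmorphamine the order of levels per length was changed. Lect1, Papss2, Col2a1 and Wwp2 had all been above Vcan and Matn4 with vehicle, at 2872, 1651, 1450 and 1360 reads per kilobase against 563 and 342. With purmorphamine Matn4 at 582 and Vcan at 521 were above Lect1 at 503, Wwp2 at 392, Papss2 at 274 and Col2a1 at 163, and the levels of Vcan, Sox9 at 507 and Lect1 differed by less than their spread.

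**Figure D4:**
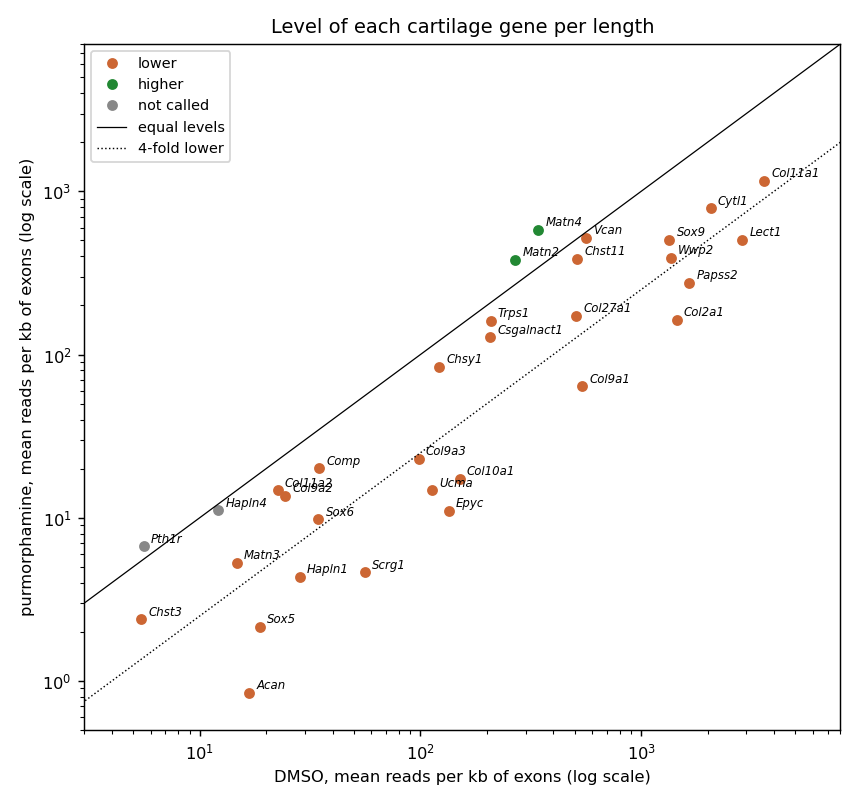
Mean reads per kilobase of exons of the 32 cartilage genes tested, with vehicle (horizontal, n = 3) and purmorphamine (vertical, n = 4), both on log axes. The solid line marks equal levels and the dotted line a 4-fold fall. Col2a1 and Col9a1 lie below the dotted line among the abundant genes, whereas Vcan lies just below the solid line and Matn4 above it.

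Within the purmorphamine group many of the cartilage genes that fell had their highest and lowest values in the same libraries. After scaling, replicate 8 held the highest value of the 4 libraries for 18 of the 28 genes that fell (64.3%), where it did so for 27.9% of all genes that were lower. Replicate 6 held the lowest value for 16 of them (57.1%, against 34.5% of all lower genes). Sox9 itself was highest in replicate 8 and lowest in replicate 6, as were Acan, Col9a1, Col11a1, Lect1 and Papss2. Others went another way, with Vcan and Comp lowest in replicate 8 and Epyc highest in replicate 6. Slc26a2 and Runx1, outside the set, were also highest in replicate 8 and lowest in replicate 6. All these genes share libraries, so this is a description of 4 samples.

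Promoter sequence was examined for the letters AACAAT or ATTGTT, the same motif read on either strand and a core of the sites that Sox proteins bind. RefSeq promoters (GRCm38.p6), taken as the 250 bases before each start, were matched for 30 of the 42 genes, with 41 starts. Sox9, Col2a1, Col9a3, Comp, Scrg1, Matn2, Trps1 and Csgalnact1 were among the genes not matched, so their promoters were not examined. Of the 29 starts of genes that fell, 4 held the motif (13.8%), and of all 32851 starts 9.42% did. Of all 41 starts of the set 6 held it (14.6%), among them those of Cilp2 and Hapln3, which had too few reads to be tested. The letters GACCACCCA or TGGGTGGTC, a Gli site, were in none of the 41 and in 0.225% of all. At so low a share 41 starts would most likely hold none, so no conclusion is drawn from their absence. The windows of the 3 genes with the Sox motif that fell, Epyc with 2 starts, Sox6 and Papss2, are shown from 250 bases before the start, with the motif in capitals. A match is a description of the letters and not a binding site.
Epyc, upstream start: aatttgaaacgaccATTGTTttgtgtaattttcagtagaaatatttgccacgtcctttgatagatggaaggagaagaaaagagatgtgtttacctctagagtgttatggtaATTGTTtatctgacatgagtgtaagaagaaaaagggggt
Epyc, downstream start: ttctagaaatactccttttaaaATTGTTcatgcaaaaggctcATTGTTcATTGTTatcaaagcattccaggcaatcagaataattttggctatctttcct
Sox6, internal start: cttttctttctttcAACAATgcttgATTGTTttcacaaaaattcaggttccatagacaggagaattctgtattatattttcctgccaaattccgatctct
Papss2, internal start: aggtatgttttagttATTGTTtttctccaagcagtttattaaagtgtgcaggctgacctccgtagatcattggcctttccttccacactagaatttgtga
They lie at chr10:97643818-97643967, chr10:97646853-97646952, chr7:115824861-115824960 on the minus strand, and chr19:32619755-32619854. Epyc had 5 matches over its starts and Acan had none in its window. Any relation of matches to the fall was not tested.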

How the data were processed

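RNA-seq libraries from C3H10T1/2 cells were mapped to their treatment by sample title. The deposited values are counts of sense-strand reads per gene, which the authors made with STAR 2.5.3a on mm9 (per the submitters' processing notes) after resampling reads to equal numbers per library. The annotation is not given in the sources used here, and no sample column was left unused. Genes were tested with edgeR 4.0.16 (R 4.3.3) using TMM factors (0.978 to 1.02), which assume that most genes do not change, the default filter (10 counts, total of 15, leaving 12388 genes) and a quasi-likelihood test, called at an adjusted p under 0.2, the FDR of the study. Ratios to Sox9 were tested with limma 3.58.1 on log2(count + 0.5). Permutation tests ran over the 35 splits of log2(scaled count + 1). Ratios of genes under the filter carry exact conditional binomial intervals. Exon lengths, for reads per kilobase, are from GENCODE M21, not the authors' annotation. The fits were also run on simulated counts in which few genes changed, as many up as down. Far more genes were called in the data, so this did not test the assumption of the TMM factors. Every gene of the set is named. Of other lists, those called with the largest rises and falls, up to 3 each, are named. Genes and lists were chosen with earlier results of these data known. DESeq2 1.42.0 and limma-voom were run as alternatives, as were library totals without TMM factors, no filter or a stricter one, a threshold of 0.05 and fits without each library in turn.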

Additional observations from a re-analysis of the deposited data

Results flagged for a closer look

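Among the 32 cartilage genes tested, Col9a3 had 1 purmorphamine library that stood apart. After TMM scaling, the gap between replicate 8 and the nearest library was 0.888 of the range of the 4 libraries, and the counts as deposited were 66, 65, 63 and 86 in replicates 5 to 8. Chance flags about 1 in 20 groups, or 1.6 of the 32 genes examined, and 1 was found. Without purmorphamine replicate 8 the log2 fold change of Col9a3 was -2.25, against -2.14 with it.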

How the results depend on the processing

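No paired analysis was possible because vehicle libraries are numbered 2 to 4 and purmorphamine libraries 5 to 8. The number of cartilage genes called lower was 28, and it ran from 26 to 29 over all alternatives. With each library left out, the lower count ran from 28 to 29, and the 26 came from requiring 10 counts in every library, which leaves out Acan and Scrg1 by construction. The median log2 fold change of the genes tested was -1.19 with no filter, since all 42 genes then entered, and from -1.63 to -1.49 with single libraries left out. Without TMM factors 7 of the other regulators of chondrocytes were higher in place of 4, and with single libraries left out 4 to 7 were (7 without DMSO replicate 3). With no filter 2 of the proteases were lower and 1 related Sox gene was higher, and with single libraries left out 1 to 2 proteases were lower (2 without DMSO replicate 2). Directions changed for uncalled values alone: Hapln4 ran from -0.26 to 0.011 (the last without DMSO replicate 2) and Pth1r from -0.039 (without purmorphamine replicate 5) to 0.53. Relative to Sox9, the range with single libraries left out was -0.055 to 0.074 for Cytl1 and -0.21 to 0.066 for Matn3, where the call was gained without purmorphamine replicate 7. Col27a1 lost its call without DMSO replicate 3 and without purmorphamine replicate 5 or 8 (-0.18 to -0.064), and Chst3 without DMSO replicate 2 or 3 and without purmorphamine replicate 5 or 8 (0.12 to 0.31). The cause was not tested. Genes with 3 reads or fewer could not be read at this depth.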

Other observations

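Of the other regulators of chondrocytes, 22 by list, 17 were tested. Of these 6 were lower and 4 higher, near the 31.1% and 31.4% of all genes tested, with a median log2 fold change of 0.066 (7 were higher without DMSO replicate 3). Runx1 fell from 976, 1015 and 991 to 374, 374, 385 and 419 reads (log2 fold change -1.40, SE 0.0583, edgeR adjusted p = 4.20e-12), close to the fall of Sox9. Ppargc1a, a coactivator that binds Sox9, fell from 17, 26 and 20 to 2, 2, 3 and 2 reads, and it passed the filter only through the vehicle libraries. Hif1a fell by 0.48 on the log2 scale. Dlx5, Pax9 and Mef2d, each with a role in cartilage or bone, rose by log2 fold changes of 0.68, 0.58 and 0.52. Of the related Sox genes, Sox4 fell from 1000, 1044 and 1072 to 595, 629, 586 and 570 reads and Sox13 fell by 0.52 on the log2 scale, and Sox12 was not called.

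Of 4 proteases of cartilage matrix tested, 3 were higher and 1 lower, where 31.4% and 31.1% of all genes tested were. In either direction 62.5% of all genes tested were called. Without DMSO replicate 2, 2 proteases were lower. Mmp9 was left out by the filter, at 10, 23 and 17 reads with vehicle against 3, 3, 4 and 7 with purmorphamine, groups that did not overlap. Mmp13 had at most 2 reads in any library. Adamts5, the main aggrecanase of mouse cartilage, had 8664, 8409 and 8229 reads with vehicle against 12379, 11783, 13290 and 12749 with purmorphamine (log2 fold change 0.53, SE 0.0505, edgeR adjusted p = 1.86e-07). Adamts1 rose by a log2 fold change of 0.74 and Htra1 by 0.46, whereas Adamts4, another aggrecanase, fell from 172, 203 and 180 to 142, 110, 111 and 129 reads.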
